A study of Mus musculus with 24 samples.

Results

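The genes described here belong to the integrated stress response of the mouse liver and to the hormone signal it feeds. They were taken from the array by gene symbol, using the platform's probe annotation and a list of 10 symbols, and 9 of them were found among 24704 genes tested: Fgf21, Atf3, Atf5, Ddit3, Ddit4, Trib3, Asns, Chac1 and Nupr1. The remaining 1 of the 10 was not analysed here. Whole-liver RNA was read on 24 Affymetrix arrays in 8 groups of 3. HepCAV1ko mice carried floxed Cav1 alleles and a Cre recombinase under the Albumin promoter. This is meant to delete Cav1, the gene of caveolin-1, in hepatocytes and to leave it in the other liver cells. The study still detected some CAV1 protein in lysates of HepCAV1ko hepatocytes and proposed that the knockout system could be leaky. HepCAV1wt mice were littermates with the same floxed alleles and no Cre. Males and females of both genotypes ate chow up to an age of 8 weeks and were then given a diet deficient in methionine and choline (MCD diet) or a control diet holding both nutrients for 4 weeks, so that the livers were taken at 12 weeks. In the text a group is named by genotype, diet and sex, and all values are log2 expression, on which a difference of 1 is a doubling. Values of different genes were not compared, since each probe set has its own response.

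The integrated stress response starts when a kinase phosphorylates the translation factor eIF2, for example because an amino acid is missing, proteins misfold in the endoplasmic reticulum, or mitochondria fail. General protein synthesis then slows, while the mRNA of the transcription factor ATF4 is translated more. ATF4 pairs with C/EBP proteins on a composite DNA element and switches on genes for amino acid supply, other stress transcription factors, feedback inhibitors and, in the liver, the secreted hormone FGF21. Methionine is an essential amino acid, and its shortage is a known trigger of this pathway.

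Because ATF4 acts through this composite element, called CARE, the promoters of the members were searched for its core, TGATGNAA, on both strands of a 300-base window from 250 bases before to 50 bases after the gene start (RefSeq sequences, build GRCm38.p6). All 9 members had a promoter entry, and the core occurred in 6 of them, Fgf21, Atf3, Nupr1, Asns, Chac1 and Trib3. Of 27025 genes with an entry, 4.51% held it. The palindromic CRE core, TGACGTCA, which cannot overlap these letters, occurred in 0 of the 9 members and in 2.03% of all genes. The members were chosen as genes of this pathway, so their share of the CARE core is no finding about the diet. The next shares count only genes with a promoter entry, which 18383 of the 24704 genes tested had. The core was in 3.89% of these. For genes called higher on the MCD diet below, averaged over genotype and sex, it was in 3.92% of 1886. Of 1787 called lower, 2.85% held it. Of 86 genes called higher in each genotype and sex, 9 (10.5%) held it. Fgf21, Nupr1, Asns and Atf3, chosen as pathway genes, are among these 9, so this share is no finding about the diet either. Among related lists the core was in 2 of 16 amino acid and one-carbon supply genes and 5 of 7 cytosolic tRNA synthetase genes with an entry. The part of the window before the gene start (250 bases) is shown for the genes that moved furthest on the diet, and the site with its flanks for Chac1 and Trib3, to set the shared letters side by side, from 5′ to 3′ on the strand of the gene, with the match in capitals.
Fgf21, chr7:45615491-45615740, minus strand: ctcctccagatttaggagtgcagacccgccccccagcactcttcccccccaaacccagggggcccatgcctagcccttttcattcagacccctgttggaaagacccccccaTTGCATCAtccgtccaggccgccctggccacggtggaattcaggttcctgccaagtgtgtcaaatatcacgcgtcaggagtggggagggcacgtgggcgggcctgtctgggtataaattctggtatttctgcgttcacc
Nupr1, chr7:126625471-126625720, minus strand: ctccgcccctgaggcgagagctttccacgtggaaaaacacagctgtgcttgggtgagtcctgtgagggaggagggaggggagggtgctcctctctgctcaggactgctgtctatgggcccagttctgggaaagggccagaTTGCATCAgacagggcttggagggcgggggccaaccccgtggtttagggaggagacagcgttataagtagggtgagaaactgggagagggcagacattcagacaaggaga
Atf3, chr1:191183334-191183583, minus strand: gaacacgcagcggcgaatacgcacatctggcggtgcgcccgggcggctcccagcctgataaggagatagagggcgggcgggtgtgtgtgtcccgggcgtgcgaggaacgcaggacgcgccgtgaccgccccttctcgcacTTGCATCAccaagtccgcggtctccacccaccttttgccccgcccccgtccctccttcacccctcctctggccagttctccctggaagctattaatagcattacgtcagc
Asns, chr6:7693210-7693459, minus strand: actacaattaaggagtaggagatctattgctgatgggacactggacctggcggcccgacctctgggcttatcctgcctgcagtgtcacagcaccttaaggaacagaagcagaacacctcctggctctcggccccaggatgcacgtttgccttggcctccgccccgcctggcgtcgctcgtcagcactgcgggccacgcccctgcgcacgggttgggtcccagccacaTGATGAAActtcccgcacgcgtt
Chac1, chr2:119351023-119351082, plus strand: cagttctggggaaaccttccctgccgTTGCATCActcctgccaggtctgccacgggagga
Trib3, chr2:152344028-152344057, minus strand: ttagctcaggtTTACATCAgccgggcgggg

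Fgf21, Nupr1, Atf3 and Chac1 held the same 8 letters, TTGCATCA, the core read on the other strand with C at its free position. The match began 139 bases before the gene start in Fgf21, 110 bases before it in Nupr1 and in Atf3, and 193 bases before it in Chac1. Asns held TGATGAAA beginning 23 bases before the start, and Trib3 held TTACATCA 14 bases past it. These letters were not found in the windows of Atf5, Ddit3 and Ddit4. A match describes the sequence only, and binding of ATF4 was not measured.

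Before the members, the arrays themselves were checked. The correlation between arrays of the same group was 0.981 to 0.991, and the sex genes Xist and Eif2s3y fitted the label of 24 of 24 arrays. Cav1, the deleted gene, lay between 3.95 and 4.41 in the 12 MCD arrays and between 3.51 and 4.94 in the 12 control arrays. Averaged over diet and sex it differed by -0.31 between HepCAV1ko and HepCAV1wt livers (SE 0.12, limma adjusted p = 0.957). The difference was -0.65 in control males and -0.45 in control females, but -0.05 in MCD males and -0.08 in MCD females. None of these was called. Whole liver holds other cells that carry Cav1. The feature was also dim, with a mean of 4.15 over all arrays beside a median of 3.83 over all genes and arrays. For both reasons these values do not check the genotype labels. Hepatocyte genes such as Alb and Apoa1 were at the top of the scale in every array, with a mean over 11 markers of 12.06 to 12.26 in MCD arrays and 12.13 to 12.19 in control arrays. Nothing in the labels says that the numbered arrays of a group are separate mice, and all p-values refer to the spread among these arrays, which may be technical.

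The diet comparison asks what 4 weeks without methionine and choline did to these genes. Averaged over the 4 combinations of genotype and sex, 7 of the 9 members rose on the MCD diet, 0 fell, and Ddit4 and Chac1 did not pass the test (limma, Benjamini-Hochberg adjusted p under 0.05 over all genes). Over all genes 9.79% rose and 9.39% fell in the same comparison. The median difference was 0.77 over the 9 members and -0.01 over all genes. The 4 members with the largest differences were the hormone gene Fgf21, the stress-induced chromatin protein gene Nupr1, the asparagine synthetase gene Asns and the repressor gene Atf3, and each of these was also called higher within each combination on its own. Only 0.445% of all genes were called higher in each of the 4.

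Fgf21 encodes a fasting and stress hormone of the liver that acts on fat tissue and brain. The 12 MCD arrays had log2 values of 7.02 to 9.58, with a median of 8.00, and the 12 control arrays had 3.92 to 5.96, with a median of 4.48. No MCD array overlapped a control array. The difference was 3.37 (SE 0.26, 10.3-fold, limma adjusted p = 3.7e-09).
Within groups, the MCD arrays held 8.66, 8.40 and 7.16 in HepCAV1ko males and 8.44, 7.02 and 8.25 in HepCAV1wt males. In MCD females the arrays held 7.14, 7.33 and 7.78 in HepCAV1ko and 8.22, 7.17 and 9.58 in HepCAV1wt. The control arrays held 4.56, 4.72 and 4.62 in HepCAV1ko males and 4.08, 4.32 and 4.85 in HepCAV1wt males. One control array stood out, the third of HepCAV1ko females, at 5.96 beside 3.92 and 4.41 in its group, and control HepCAV1wt females held 4.31, 4.64 and 4.33. By group mean the order on the MCD diet was HepCAV1wt females, HepCAV1ko males, HepCAV1wt males and HepCAV1ko females, and each neighbouring pair overlapped in its arrays, as did each neighbouring pair of control groups. The diet difference was 3.44 in HepCAV1ko males, 3.49 in HepCAV1wt males, 2.65 in HepCAV1ko females and 3.89 in HepCAV1wt females, with adjusted p from 9.4e-05 to 0.00708 (limma).

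**Figure D1:**
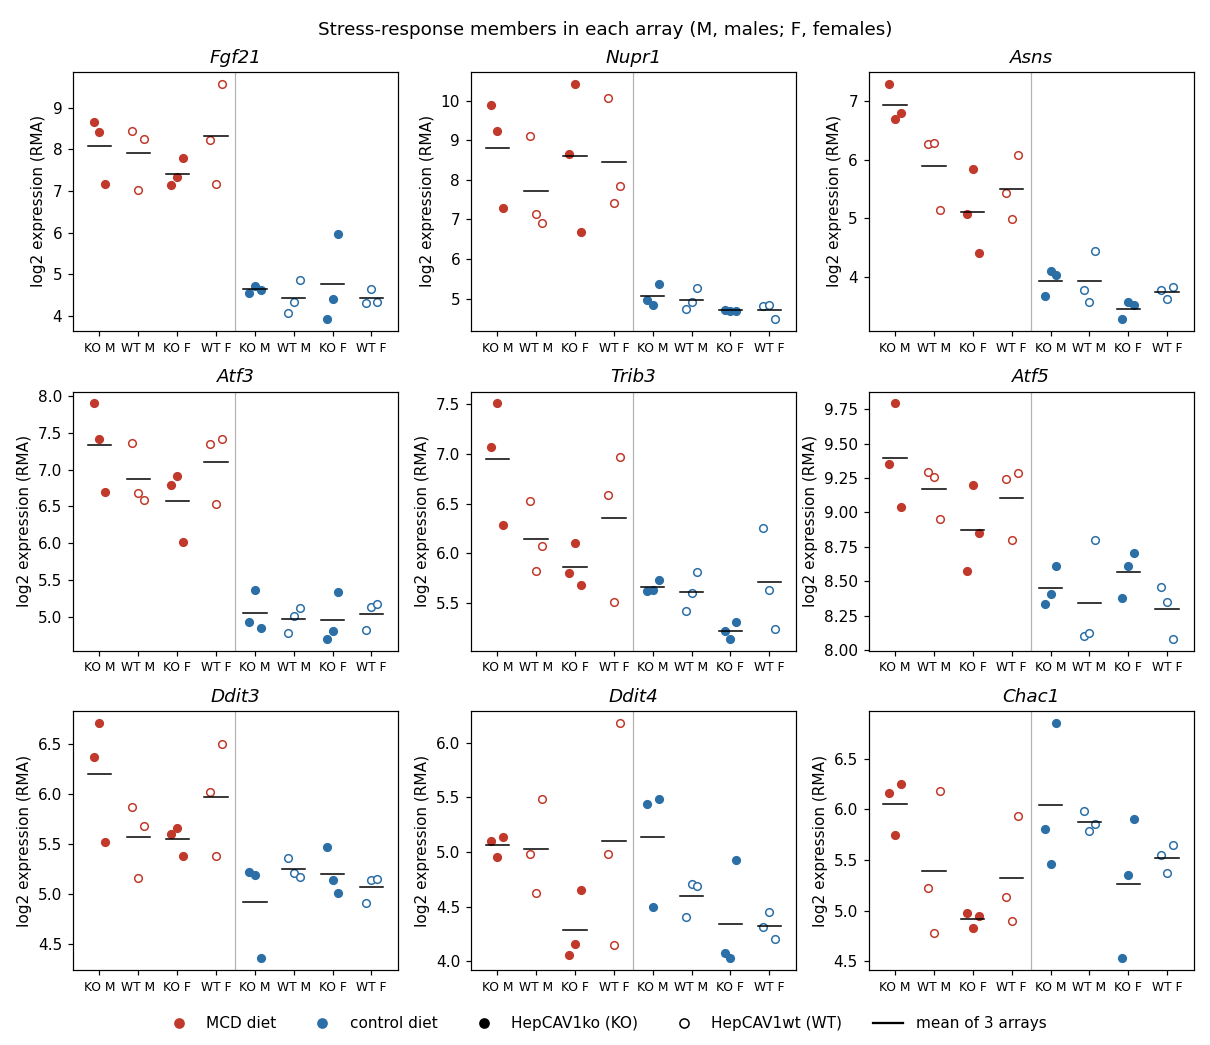
Log2 expression (RMA) of the 9 members in each of 24 arrays, with MCD groups left of control groups; KO is HepCAV1ko, WT is HepCAV1wt, M males and F females, points are arrays and bars the mean of 3. For Fgf21, Nupr1 and Atf3 all 12 MCD arrays lie above all 12 control arrays, while the Ddit4 and Chac1 arrays of the 2 diets overlap.

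Nupr1 encodes a small stress-induced chromatin protein. It had 6.70 to 10.43 in the MCD arrays, with a median of 8.24, and 4.48 to 5.36 in the control arrays, with a median of 4.83. The diets did not overlap, but the MCD arrays spread over far more than the control arrays, with an SD of 1.34 against 0.25. The difference was 3.53 (SE 0.38, 11.5-fold, limma adjusted p = 4.9e-07).
The spread lay within groups. HepCAV1ko females on the MCD diet held 8.65, 10.43 and 6.70, HepCAV1ko males 9.90, 9.23 and 7.28, HepCAV1wt males 9.10, 7.14 and 6.91, and HepCAV1wt females 10.07, 7.43 and 7.83. In HepCAV1wt males the call (2.74, adjusted p = 0.0399) was lost when any of 5 of its 6 arrays was left out, with adjusted p of 0.131, 0.113 and 0.0779 without control array 1, 2 or 3 and of 0.198 and 0.0592 without MCD array 1 or 2. In HepCAV1ko females (3.89, adjusted p = 0.00706) it was lost without MCD array 2 (adjusted p = 0.0751) and in a limma fit of the 6 arrays of that comparison alone (adjusted p = 0.0706).

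Asns encodes the enzyme that makes asparagine, a textbook target of ATF4. It had 4.42 to 7.30 in the MCD arrays, with a median of 5.97, and 3.28 to 4.44 in the control arrays, with a median of 3.73. The lowest MCD array, the third of HepCAV1ko females, was just below the highest control array, and the other 11 MCD arrays were above every control array. The difference was 2.09 (SE 0.17, 4.26-fold, limma adjusted p = 6.4e-09). It was 3.00 in HepCAV1ko males, 1.97 in HepCAV1wt males, 1.65 in HepCAV1ko females and 1.75 in HepCAV1wt females. Without MCD array 2 of HepCAV1ko females the call in that group was lost (1.28, limma adjusted p = 0.0924), as it was in a fit of the 6 arrays of that comparison alone (1.65, adjusted p = 0.0668).

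Among the transcription factors, Atf3 encodes a repressor induced by ATF4 and by many other stresses. It had 6.02 to 7.90 in the MCD arrays, with a median of 6.85, and 4.70 to 5.37 in the control arrays, with a median of 4.97, again with no overlap. The difference was 1.97 (SE 0.15, 3.91-fold, limma adjusted p = 2.6e-09), and its range over the combinations was narrow, at 2.29 in HepCAV1ko males, 1.91 in HepCAV1wt males, 1.62 in HepCAV1ko females and 2.06 in HepCAV1wt females. All 12 MCD arrays lay above all 12 control arrays for 3 of the members, Fgf21, Nupr1 and Atf3, which was the case for 0.648% of all genes.

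Atf5 encodes a factor related to ATF4 that serves in the mitochondrial unfolded protein response. It had 8.57 to 9.79 in the MCD arrays and 8.08 to 8.80 in the control arrays, and 10 of the 12 MCD arrays were above every control array. The difference was 0.72 (SE 0.10, limma adjusted p = 2.5e-05). It was called in HepCAV1ko males (0.95), HepCAV1wt males (0.83) and HepCAV1wt females (0.81), and the value in HepCAV1ko females was 0.31 (adjusted p = 0.661). Each of these 3 calls was lost when single arrays were left out. In HepCAV1ko males it was lost without MCD array 2 (adjusted p = 0.0538), in HepCAV1wt males without MCD array 1 or 2 or control array 1 or 2 (0.0921, 0.0859, 0.131 and 0.124), and in HepCAV1wt females without MCD array 1 or 3 or control array 2 or 3 (0.12, 0.0992, 0.0556 and 0.107). The call in HepCAV1wt males was also lost in a limma fit of its 6 arrays alone (0.83, adjusted p = 0.0762).

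Ddit3 encodes CHOP, the factor that links a lasting stress response to cell death. It had 5.16 to 6.72 in the MCD arrays, with a median of 5.68, and 4.36 to 5.47 in the control arrays, with a median of 5.16. Of the 12 MCD arrays, 9 were above every control array. The difference was 0.71 (SE 0.14, limma adjusted p = 8.2e-04). Among the single combinations Ddit3 was called in HepCAV1ko males (1.28, adjusted p = 0.00699), with 6.37, 6.72 and 5.52 on the MCD diet and 5.22, 5.19 and 4.36 on the control diet. The third control array of that group was the lowest of all 24, and without it the value was 1.00 (adjusted p = 0.0569), while without MCD array 2 it was 1.02 (adjusted p = 0.0536), and in a fit of the 6 arrays of that comparison alone it was 1.28 (adjusted p = 0.0622). In HepCAV1wt females the value was 0.90 (adjusted p = 0.0717), and it passed without MCD array 2 of that group (1.20, adjusted p = 0.022) and, through the shared estimate of the spread, without control array 3 or MCD array 3 of HepCAV1ko males (0.90 in both fits, adjusted p = 0.0492 and 0.0389). It also passed when the test was kept to genes above the median expression, with fewer genes to adjust over (0.90, limma adjusted p = 0.0452).

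Of the feedback inhibitors and effectors, Trib3 encodes a pseudokinase that restrains ATF4 and CHOP. It had 5.51 to 7.51 in the MCD arrays and 5.14 to 6.25 in the control arrays, and 6 of the 12 MCD arrays were above every control array. The difference was 0.77 (SE 0.16, limma adjusted p = 8.8e-04). It was called in HepCAV1ko males (1.29, adjusted p = 0.0133), whose arrays held 7.06, 7.51 and 6.28 on the MCD diet and 5.62, 5.63 and 5.73 on the control diet, and that call was lost without MCD array 1 (1.23, 0.0579) or MCD array 2 (1.01, 0.0877). The values in the other combinations were 0.53 in HepCAV1wt males, 0.64 in HepCAV1ko females and 0.64 in HepCAV1wt females.

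Ddit4 and Chac1 did not pass. Ddit4 encodes REDD1, an inhibitor of the growth kinase mTORC1 that glucocorticoids also induce. Its values of 4.06 to 6.18 in the MCD arrays overlapped 4.02 to 5.48 in the control arrays, with a difference of 0.27 (95% interval -0.10 to 0.64, limma adjusted p = 0.348). Chac1 encodes an enzyme that degrades glutathione and is a known target of the PERK, ATF4 and CHOP branch. It had 4.78 to 6.25 in the MCD arrays and 4.53 to 6.85 in the control arrays, a difference of -0.25 (-0.62 to 0.12, adjusted p = 0.382), so that a rise of Chac1 above 0.12 lay outside the interval. Chac1 thus gave no call although its promoter window holds the same 8 letters as that of Fgf21.

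**Figure D2:**
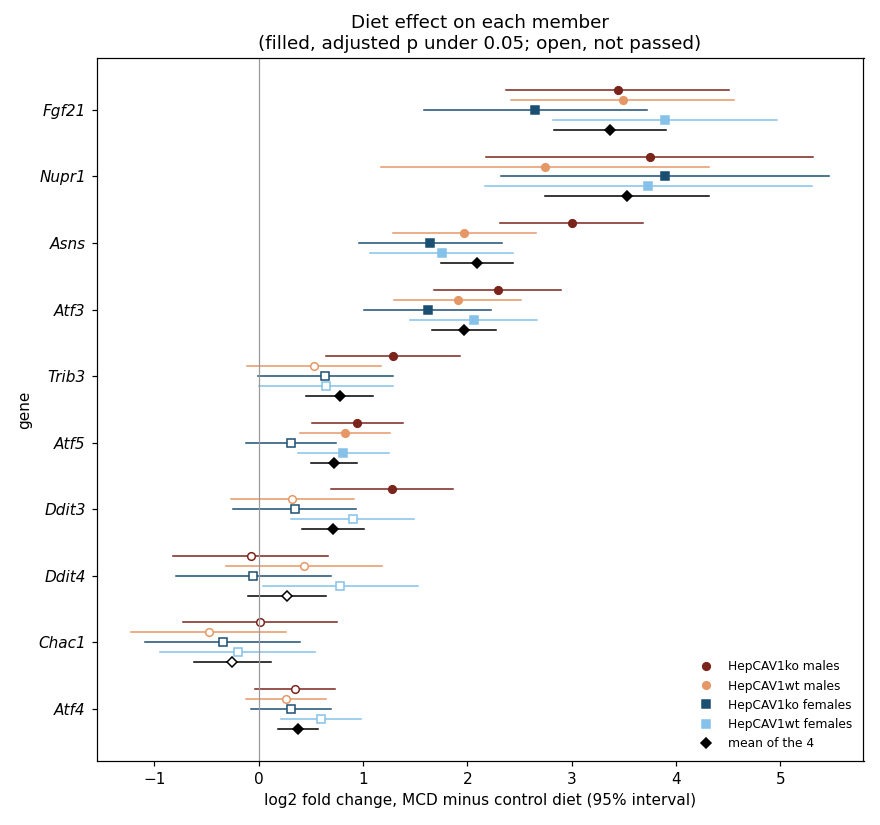
Log2 fold change of the MCD against the control diet for the 9 members and Atf4, with 95% intervals, in HepCAV1ko and HepCAV1wt males and females and in the mean of the 4; filled symbols passed at an adjusted p under 0.05 (limma). Fgf21, Nupr1, Asns and Atf3 were called in each combination, and Ddit4, Chac1 and, outside the mean, Atf4 in none.

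By combination, the members called higher were 7 in HepCAV1ko males (3.62% of all genes), 5 in HepCAV1wt males (2.28%), 4 in HepCAV1ko females (0.765%) and 5 in HepCAV1wt females (2.59%), and 0 were called lower in any (3.02%, 2.09%, 0.878% and 2.34% of all genes in the same order of groups). The number in HepCAV1wt females moved to 8 when its second MCD array was left out, by the addition of Ddit3, Ddit4 (1.26, limma adjusted p = 0.038) and Trib3 (1.07, adjusted p = 0.0413). That array was the lowest of its group for 9 of the 9 members, and the third array of the group was the highest for 8 of the 9. Over 13 glucocorticoid-induced genes, which include Igfbp1 and Lcn2, those same arrays held the lowest and the highest mean of the 12 MCD arrays, 8.76 and 9.48, and the part of this in the members' values was not tested.

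The response was then followed upstream and along the pathway in the mean diet comparison. Each list count for that mean stands beside 9.79% of all genes that rose and 9.39% that fell. Of 14 genes for the eIF2 kinases, eIF2B and the eIF2 phosphatase, 2 rose, Eif2ak3 and the eIF2B subunit gene Eif2b2 (0.26), 1 fell, and 11 did not pass. The kinase genes were Eif2ak3, which encodes PERK, the sensor of the endoplasmic reticulum (0.55, limma adjusted p = 8.5e-04), Eif2ak2, which encodes the RNA sensor PKR (-0.34, adjusted p = 0.0421), Eif2ak4, which encodes GCN2, the sensor of uncharged tRNA (-0.05, adjusted p = 0.744), and Eif2ak1, which encodes the heme-regulated kinase (-0.13, adjusted p = 0.128). These kinases act through phosphorylation, which mRNA levels do not show. Of 8 genes for ATF4 and its C/EBP and related partners, 3 rose and 1 fell. Atf4 itself had a median of 7.03 in the 12 MCD arrays (highest 7.47) and 6.72 in the 12 control arrays (lowest 6.29), and 7 MCD arrays were above every control array. The difference was 0.38 (SE 0.09, adjusted p = 0.00485), and in the single combinations it was not called (0.27 to 0.59). Jdp2, which encodes a relative of ATF3, rose by 0.23, and Cebpa, the main C/EBP gene of hepatocytes, fell by 0.31.

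Downstream, 11 of 22 genes for amino acid and one-carbon supply, all known ATF4 targets in other settings, rose, 1 fell and 10 did not pass. The list median was 0.27. By combination, 7 were called higher in HepCAV1ko males, 2 in HepCAV1wt males, 0 in HepCAV1ko females and 4 in HepCAV1wt females. In the same order, 3.62%, 2.28%, 0.765% and 2.59% of all genes were called higher, and the list medians were 0.39, 0.42, 0.21 and 0.33. Of the list, 1 was called lower in HepCAV1ko males and 1 in HepCAV1wt females. Psat1, an enzyme of serine synthesis, rose by 1.39 (SE 0.13, limma adjusted p = 4.5e-08), the cystine transporter Slc7a11 by 1.14 (adjusted p = 3.2e-04) and Mthfd2, an enzyme of mitochondrial one-carbon metabolism, by 0.90 (adjusted p = 4.7e-05). Psat1 and Slc7a11 were dim, below the median over all genes and arrays (3.83) in every control array. Slc7a11 was also below it in every MCD array except the first of HepCAV1ko males (5.20). The gene that fell was Cbs, the first enzyme that turns homocysteine towards cysteine (-0.49, adjusted p = 4.6e-04), named after its value was seen. Of 12 cytosolic tRNA synthetase genes, which charge tRNAs with amino acids, 7 rose, among them Gars (0.81), Sars (0.58) and Nars (0.36), and 1, Tars, fell (-0.30), also named after its value was seen. Of 11 mitochondrial chaperone and protease genes, 3 rose, among them Hspa9 (0.33) and Lonp1 (0.33), and 1 fell, Trap1 (-0.40).

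The chaperones of the endoplasmic reticulum and the IRE1 and ATF6 arms of its unfolded protein response, which run beside PERK, moved otherwise. Of 18 genes, 2 rose, 5 fell and 11 did not pass, with a median of -0.15 beside -0.01 for all genes. Sdf2l1 (-0.69, limma adjusted p = 0.00255), Creld2 (-0.47, adjusted p = 0.0253) and Edem1 (-0.45, adjusted p = 2.1e-04), 3 genes of folding and disposal, were the called ones with the largest differences, all lower on the MCD diet. The 2 that rose were Dnajb9 (0.43) and Atf6 (0.33), named after their values were seen.

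For the hormone, factors that act on the Fgf21 gene and a wider list of receptor genes were examined. Of 12 such transcription factor genes, 3 rose and 4 fell. Pparg rose by 1.20 (limma adjusted p = 1.3e-06) and the coactivator gene Ppargc1a by 0.51 (adjusted p = 2.1e-04), while Mlxipl, which encodes the carbohydrate sensor ChREBP, fell by 0.71 (adjusted p = 5.4e-05). Ppara, which encodes the fasting receptor that drives Fgf21, was 0.22 lower in MCD livers (-0.22, adjusted p = 0.00462, named after its value was seen), yet of 17 genes that PPARα controls 10 rose and 0 fell, among them the fatty acid hydroxylase genes Cyp4a31 (3.47) and Cyp4a14 (3.25), which share sequence, and Pdk4 (2.31). Of 8 genes for FGF receptors, Klotho co-receptors and a receptor complex of another hormone, 0 rose and 2 fell, Klb, the β-Klotho co-receptor (-0.51, adjusted p = 2.1e-04), and Fgfr4 (-0.31, adjusted p = 0.012).

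**Figure D3:**
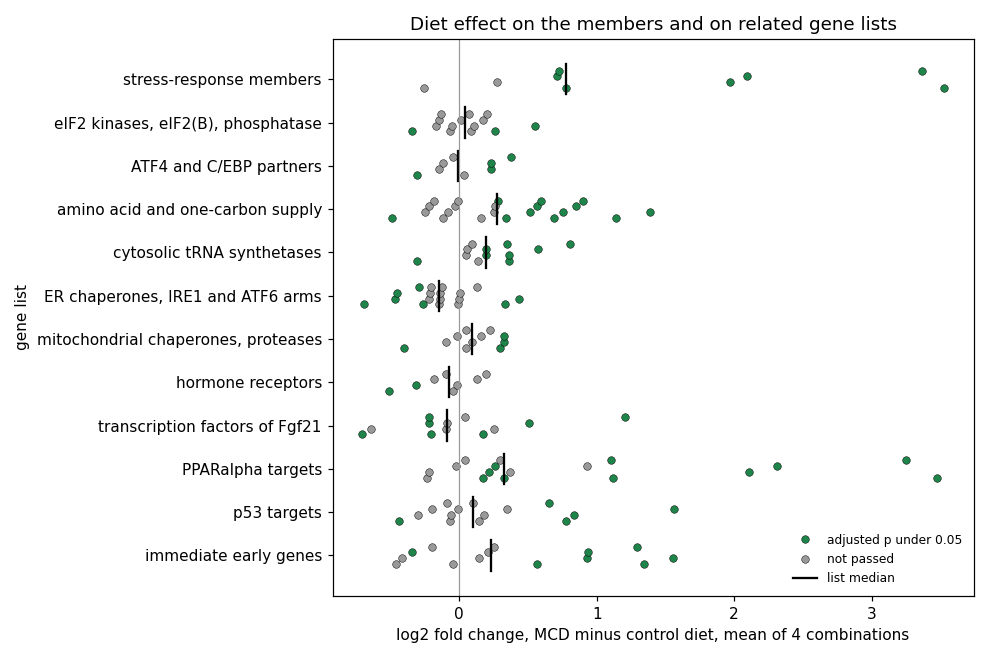
Log2 fold change of the MCD against the control diet, mean of the 4 combinations, for each gene of the members and of 11 related lists; green points passed at an adjusted p under 0.05, grey points did not, and bars are list medians. The members have a median of 0.77, amino acid and one-carbon supply 0.27 and endoplasmic reticulum chaperones -0.15.

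Markers of other liver cells moved with the diet as well. In whole liver, a change in the number of cells of a type and a change in RNA per cell cannot be told apart. Of 14 macrophage markers, 8 rose and 1 fell, with a list mean of 6.12 to 7.60 in MCD arrays and 5.58 to 6.13 in control arrays, led by Mmp12 (5.22), Gpnmb (3.21) and Lgals3 (1.65), while Timd4, named after its value was seen, fell (-0.34). Of 11 stellate cell and fibroblast markers, 10 rose, among them Lum (1.29), Dcn (1.00) and Col1a1 (0.88), with a list mean of 6.07 to 6.87 in MCD arrays and 5.60 to 6.10 in control arrays. The hepatocyte list had 2 of 11 higher, Apob (0.16) and Ahsg (0.14), and 0 lower, and the lymphocyte list 0 of 9 in either direction. The hepatocyte list holds genes at the ceiling of the scale. The lymphocyte list mean was at most 3.54 in any array, beside a median of 3.83 over all genes and arrays. These counts thus say little about the content of either cell type.
The 2 MCD arrays with the lowest macrophage list mean were the third of HepCAV1ko females (6.12) and the third of HepCAV1wt males (6.22). Fgf21 was at 7.78 and 8.25 in them, within the range of the other MCD arrays and above every control array. Asns, at 4.42 and 5.14, was the lowest of its group in both, and Nupr1, at 6.70 and 6.91, held the 2 lowest values of all MCD arrays. The same arrays held the 2 lowest means of the stellate cell and fibroblast list on the MCD diet, 6.07 and 6.20. The part of both lists in the Asns and Nupr1 values was not tested.

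The genotype comparison asks whether hepatocyte caveolin-1 alters these genes. Of the 9 members, 0 were called between HepCAV1ko and HepCAV1wt in the mean of the 4 diet and sex combinations (0.00405% of all genes), nor in control males (0.00405%), control females (0%), MCD males (0%) or MCD females (0%). At an unadjusted p under 0.05 there were 3 members in MCD males (4.23% of all genes), 1 in MCD females (3.92%), and 0 in control males (5.48%), control females (5.57%) and the mean (4.99%). In the mean, the differences ran from -0.06 for Ddit4 to 0.33 for Nupr1. The 95% interval was -0.58 to 0.49 for Fgf21 and -0.46 to 1.11 for Nupr1. The difference between the diet effects of the genotypes was called for 0 of 9 members (0% of all genes) and was at an unadjusted p under 0.05 for 0 of 9 (3.30% of all genes).

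On the MCD diet Cav1 itself differed by -0.05 between the genotypes in males and by -0.08 in females, and neither was called. Within MCD males, the HepCAV1ko mean was the higher one for 9 of the 9 members. Asns had 7.30, 6.70 and 6.80 in HepCAV1ko and 6.27, 6.29 and 5.14 in HepCAV1wt, without overlap, a difference of 1.03 (SE 0.33, unadjusted p = 0.00504, adjusted p = 1.0 by limma). Trib3 differed by 0.81 and Ddit3 by 0.63 in the same comparison, both at an unadjusted p under 0.05 only. In MCD females the HepCAV1ko mean was lower for 8 of the 9, as for Ddit4 (-0.82), Fgf21 (-0.91) and Atf3 (-0.53), and Nupr1 was the exception (0.15). Thus 8 members had a higher mean in HepCAV1ko males and a lower one in HepCAV1ko females, a combination shown by 25.0% of all genes, and since the members were read on the same arrays these are not 8 separate observations. The difference of the genotype effect between the sexes on the MCD diet was tested after this pattern had been seen. It was called for 0 of 9 members (0% of all genes) and was under an unadjusted p of 0.05 for 5 of 9 (4.91% of all genes), with 1.42 for Asns (SE 0.47, adjusted p = 0.839) and 1.30 for Trib3 (SE 0.44, adjusted p = 0.851).

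**Figure D4:**
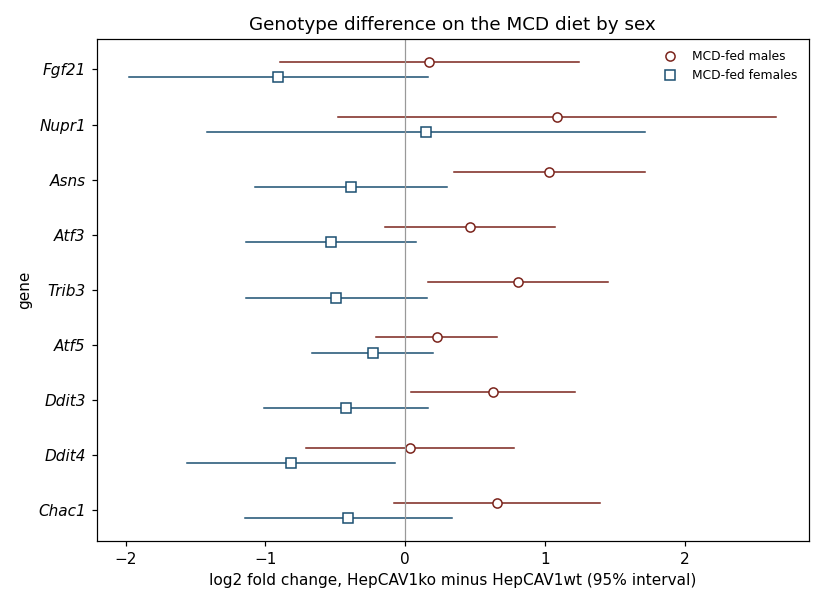
Log2 fold change of HepCAV1ko against HepCAV1wt on the MCD diet for the 9 members, with 95% intervals, in males (circles) and females (squares); open symbols did not pass the test. The male values lie above 0 for 9 of 9 members and the female values below 0 for 8 of 9, and most intervals include 0.

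The sexes were compared within each diet, over both genotypes. On the control diet 0 of 9 members were called (3.45% of all genes), and 2 were at an unadjusted p under 0.05 (15.4% of all genes), Chac1 at 0.56 and Ddit4 at 0.54. On the MCD diet 1 member, Asns, was called higher in males (0.267% of all genes). Its 6 arrays held 5.14 to 7.30 in males and 4.42 to 6.09 in females and overlapped, with a difference of 1.11 (SE 0.23, limma adjusted p = 0.0257). It was lost when any of 7 of the 12 MCD arrays was left out, with adjusted p of 0.0778 and 0.0917 without HepCAV1wt male 1 or 2, 0.0625 and 0.0911 without HepCAV1wt female 1 or 2, 0.0948 without HepCAV1ko male 1, and 0.0584 and 0.0878 without HepCAV1ko female 1 or 3, and it was lost in a fit of the MCD arrays alone (0.156). Split by genotype after the data were seen, Asns differed by 1.82 between HepCAV1ko males and females (SE 0.33, limma adjusted p = 0.0148, with 0.202% of all genes called) and by 0.40 between HepCAV1wt males and females (adjusted p = 0.835, with 0.215% called). The call in HepCAV1ko was lost without male array 1 (1.64, limma adjusted p = 0.127), female array 1 (1.80, adjusted p = 0.059) or female array 3 (1.48, adjusted p = 0.113), and in a fit of those 6 arrays alone (adjusted p = 0.147), where Chac1 passed instead (1.14, adjusted p = 0.0396, against 0.393 in the fit of all arrays). The diet effect differed between the sexes for 0 of 9 members (0.534% of all genes), and 1 was at an unadjusted p under 0.05 (8.48% of all genes), Asns at 0.78 (limma adjusted p = 0.494).

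For each member whose 8 group means spanned over 1 on the log2 scale, the genes with the closest pattern were found by the root mean square difference of the centred group means. Closest to Fgf21 were Ly6d (0.30), Nupr1 (0.42), itself a member, and Gstm3 (0.44). Nupr1 lay closest to Cidec (0.32), the gene of a lipid droplet protein, then to Fgf21 and Ly6d. The closest gene to Trib3 was Mthfd2 (0.09) of the one-carbon list, followed by the collagen gene Col1a1 (0.12) and Gipc2 (0.17). Atf3 was nearest to Uap1l1 (0.13), Mtmr11 (0.19) and Arhgef2 (0.20), and Asns to Smpd3 (0.33), D17H6S56E-5 (0.34) and Arhgef2 (0.35). Chac1, not called for the diet, was nearest to 3 small nucleolar RNA genes, Snord110 (0.15), Snord38a (0.16) and Snord12 (0.16). The smallest differences of Atf5 were to Atp2b2, Zfp991 and Samd4 (0.09 each), and those of Ddit3 to Wfdc3 (0.09), Glipr1 (0.09) and Slc50a1 (0.10).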

How the data were processed

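RNA of whole liver was measured on 24 Affymetrix MoGene 2.0 ST arrays. The deposited values are log2 expression made by the authors with RMA, whose steps are a background correction, quantile normalisation and a summary of the probes (version not given in the sources used here). Signal over background was not available, so dim genes were not removed, and the number of arrays limits the precision. Of 25428 features, 24705 had 1 gene symbol in the platform annotation and 723 had none there. For the 1 symbol with several features the brighter was kept, which left 24704 genes.

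limma 3.58.1 in R 4.3.3 estimated the 8 group means in a single model (16 residual degrees of freedom), without a block. P-values are two-sided and adjusted by Benjamini-Hochberg over all genes, with calls at under 0.05. The scripts were tested on simulated data. Figures were drawn with matplotlib 3.10.9. The members and lists were chosen with earlier results of these data known, and lists are described by counts and medians, without a test of the list. All members are named, and from each other list the count called in each direction and up to 3 called genes with the largest difference, together with Atf4 and the 4 eIF2 kinases. The 3 nearest genes are given for each member whose group means span over 1. Alternatives were array weights, a trended robust prior, centred arrays, brighter genes only, the arrays of one comparison only, the replicate block, each array left out and a two-sided t-test. The study names that t-test in its statistics, without stating the test used on the arrays. The split of the sexes by genotype and the test of genotype by sex on the MCD diet were added after the data were seen. Promoters are RefSeq windows of 300 bases.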

Additional observations from a re-analysis of the deposited data

How the results depend on the processing

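Over all settings run, the 7 members called in the mean diet comparison remained 7 when each array was left out in turn, and the genotype comparisons, diet by genotype, diet by sex and genotype by sex on the MCD diet stayed at 0 members called. With arrays left out, the members called ranged from 4 to 7 in HepCAV1ko males, 3 to 5 in HepCAV1wt males, 2 to 4 in HepCAV1ko females, 4 to 8 in HepCAV1wt females and 0 to 1 between the sexes on the MCD diet, in the mean and within HepCAV1ko. A fit of the arrays of one comparison alone, with fewer arrays to estimate the spread, called 2 members in HepCAV1ko females in place of 4 (without Asns and Nupr1), 6 in HepCAV1ko males in place of 7 (without Ddit3), 4 in HepCAV1wt males in place of 5 (without Atf5) and 0 between the sexes on the MCD diet in place of 1. The study names a two-sided t-test in its statistics but does not state which test was used on the arrays. That t-test had 7, 5, 5 and 5 members at an unadjusted p under 0.05 for the diet. The counts are for HepCAV1ko males, HepCAV1wt males, HepCAV1ko females and HepCAV1wt females, where 15.3%, 12.9%, 9.76% and 13.4% of all genes passed. After Benjamini-Hochberg it had 0 members in each, and 1 gene of the whole array (0.00405%). Between the genotypes it had 0 members at an unadjusted p under 0.05 in MCD males, MCD females, control males and control females (3.57%, 4.93%, 5.08% and 4.31% of all genes), and 0 genes of the whole array after adjustment. In HepCAV1wt males Nupr1 also lost its call with array weights (adjusted p = 0.0583) and with the trended prior (adjusted p = 0.0884).

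Values near 0 changed sign. Ddit4 in HepCAV1ko males was 0.027 with array weights in place of -0.08, and with arrays left out it ran from -0.40 to 0.094 there and from -0.23 to 0.24 in HepCAV1ko females. With arrays left out Chac1 ran from -0.28 to 0.42 in HepCAV1ko males and from -0.51 to 0.013 in HepCAV1wt females. Between HepCAV1ko and HepCAV1wt in MCD males Ddit4 ran from -0.17 to 0.26 and Fgf21 from -0.27 to 0.63. Between males and females on the MCD diet Ddit3 ran from -0.021 to 0.30, Fgf21 from -0.17 to 0.43 and Nupr1 from -0.73 to 0.20. The cause of these changes was not tested.

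Arrays with the same number shared at most weak deviations over the 28 pairs of groups, with r from -0.14 to 0.25. It was over 0.1 in 16 of 84 pairs of arrays, and in all 3 of a pair of groups for 0 of 28. Between the diets of one genotype and sex, r was over 0.1 for 3 of 12 same-number pairs and 1 of 24 others. A weak deviation shared by some same-numbered arrays thus remained possible, and the numbers were not taken to pair the arrays. With the number as a replicate block, Asns between the sexes on the MCD diet kept its call (1.11, limma adjusted p = 0.0419), and the members called for the diet were 7, 5, 4 and 5 in HepCAV1ko males, HepCAV1wt males, HepCAV1ko females and HepCAV1wt females, as without it.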

Other observations

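Other stress programmes were read from lists of known genes in the mean diet comparison, where 9.79% of all genes rose and 9.39% fell. Of 15 p53 target genes, 4 rose, 1 fell and 10 did not pass, with the cell cycle inhibitor gene Cdkn1a at 1.56 (SE 0.16, limma adjusted p = 4.2e-07), the death receptor gene Tnfrsf10b at 0.83 and Btg2 at 0.78. Of 14 immediate early genes, 6 rose, 1 fell and 7 did not pass, with Jun at 1.56 (adjusted p = 1.2e-07), Myc at 1.34 and Klf6 at 1.29. Of 13 glucocorticoid-induced genes, 3 rose, 1 fell and 9 did not pass, with Lcn2 at 2.56, Igfbp1 at 2.45 and Fkbp5 at 0.52. The genes that fell, named after their values were seen, were Sesn1 (-0.44) in the p53 list, Ier2 (-0.34) among the immediate early genes and Klf9 (-0.39) among the glucocorticoid-induced genes.

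Among the remaining cell type lists, 2 of 6 cholangiocyte markers rose (Prom1 at 0.71 and Sox9 at 0.50), 2 of 8 neutrophil markers (Retnlg at 0.48 and S100a8 at 0.31) and 1 of 9 endothelial markers (Lyve1 at 0.68). In the lymphocyte list Cd3d had the largest difference (-0.21, limma adjusted p = 0.11), and 0 of 9 passed. The lymphocyte and neutrophil list means lay below the median over all genes and arrays (3.83) in every array. The cholangiocyte list mean lay below it in every control array and had a median of 3.72 in the MCD arrays. The counts of these dim lists thus say little about the content of these cells.

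Some control arrays stood apart in single members. The third array of control HepCAV1ko females, with Fgf21 at 5.96, had Pdk4 at 7.34 beside 5.49 and 6.22 in its group and Igfbp1 at 8.88 beside 7.65 and 6.46. The third array of control HepCAV1ko males had Chac1 at 6.85, the highest value of the 24 arrays, and Ddit3 at 4.36, the lowest, and its mean over the glucocorticoid-induced genes was 9.74, while the other control arrays lay between 7.95 and 8.96.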
